A study of Mus musculus with 14 samples.

Results

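The smooth muscle contractile genes are 10 listed genes of the mouse genome that encode the contractile apparatus of smooth muscle cells and its myocardin switch: Acta2, Actg2, Myh11, Mylk, Tagln, Cnn1, Smtn, Synpo2, Lmod1 and Myocd. They were chosen from earlier results on these libraries, in which their counts differed between single mice, and were found in the count table by matching Ensembl gene identifiers to GENCODE symbols. All 10 of the 10 were present among the 56941 genes of the table, and all 10 were among the 19145 genes tested, whose mean count was 10 or more. Because the members were chosen on these values, their levels and differences are a description. Counts of members past a threshold of the fit over all genes are printed beside the share of all genes past it, and neither is evidence about the members.

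The aortic valves of male C57BL/6J mice were sequenced as bulk RNA in 14 libraries, taken as 1 library per mouse because no label states more. The study asked how angiotensin II (AngII) alters the valve and whether the HTR2B antagonist LY272015 (LY) modifies that response. HTR2B is a receptor for serotonin. All mice were wild type, were 8 weeks old at the start of the 28-day treatment period and ate a Western diet, the Ctrl mice included. The 4 Ctrl mice were untreated, the 2 LY mice analysed here received LY272015 at 3 mg/kg by injection, the 4 AngII mice received AngII at 1000 ng/kg/min from an osmotic pump for 28 days, and the 4 AngII+LY mice received both. The descriptions differ on 3 points: the dosing interval of LY272015, whether every pump or those of a subset of mice were removed 48 hours before collection, and the compound number, which rises by 1 from mouse to mouse in the treatment labels of the LY and AngII+LY groups. The paper also states more hearts per group for sequencing than there are libraries in any group here. The labelled tissue was aortic valve leaflets, each library mixes their cell types, and fewer cells of a type cannot be told apart from less RNA per cell.

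Smooth muscle cells contract when calcium and calmodulin activate the myosin light chain kinase, which phosphorylates the regulatory light chain of smooth muscle myosin and lets the motor pull on actin filaments. Most genes of this apparatus are switched on together by serum response factor (SRF), which binds a DNA element named the CArG box, and by its coactivator myocardin. These cells fill the media of the aorta and of arteries, whereas the leaflets of the valve consist mainly of interstitial and endothelial cells, of which some interstitial cells take up smooth muscle actin when activated.

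The libraries held between 20990655 and 73128220 counts on genes, of which mitochondrial genes took between 4% and 25.5%. That share was 4% to 7.52% for the Ctrl libraries, below every other library, and it was 8.62% to 9.76% for LY, 10.1% to 20.2% for AngII+LY and 9.83% to 25.5% for AngII. Genes that mark valve cells were present throughout: the 8 listed interstitial genes, among them Dcn, Vim and Lum, summed to between 0.461% and 1.77% of the counts of a library, and the 6 endothelial genes to between 0.0965% and 0.253%. The 12 cardiomyocyte genes summed to between 0.807% and 4.54%, so heart muscle RNA was also present in every library. Of the 7 listed skeletal muscle genes, the myosins Myh1, Myh2 and Myh4 had mean normalized counts of 0.31, 0.631 and 0.103. The other 4 were higher, with Acta1 at 48927.6, Ckm at 14765.5, Mylpf at 98 and Tnnt3 at 43.3. This list summed to between 0.0209% and 0.307% of the counts. A normalized count is a count scaled by the library's TMM-adjusted total, so that all 14 libraries share 1 average depth. By their counts on the contractile genes, 4 libraries stood apart: Ctrl 1, Ctrl 2, AngII+LY 2 and AngII+LY 4. These 4 were picked by the members' own values, so the members' high levels in them are no finding, and values without them are given beside each comparison.

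Acta2 is a classical SRF target, and its promoter is shown because it was the only member promoter in which a CArG-like sequence was found. The RefSeq promoter table (build GRCm38.p6) held 6 of the 10 members: Acta2, Mylk, Cnn1, Smtn, Synpo2 and Lmod1. Actg2, Myh11, Tagln and Myocd had no entry. The 250 bases before the annotated start of Acta2 lie at chr19:34255374-34255623 on the minus strand, and capitals mark the sequences that have the CC and GG ends of a CArG box with at most 1 G or C in the A/T core between them.
Acta2: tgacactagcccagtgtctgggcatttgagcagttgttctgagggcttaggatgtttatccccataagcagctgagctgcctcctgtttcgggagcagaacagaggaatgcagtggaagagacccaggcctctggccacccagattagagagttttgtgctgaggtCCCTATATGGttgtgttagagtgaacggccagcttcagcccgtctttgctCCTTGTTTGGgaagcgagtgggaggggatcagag
The first match, CCCTATATGG, begins at position -84 and the second, CCTTGTTTGG, at position -34, counted back from the annotated start. The element is its own reverse complement in form, so a search of this strand covers both. A window of this length held a match of this kind in 2823 of 32851 promoters (8.59%) and at least 2 matches in 220 (0.67%). With no G or C allowed in the core, 482 promoters (1.47%) held a CArG box and none of the 6 member promoters did, which says only that these letters are absent from these windows.

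The share of all gene counts that fell on the 10 contractile genes was 0.994% in Ctrl 1, 0.151% in Ctrl 2, 0.0289% in Ctrl 3 and 0.0294% in Ctrl 4. It was 0.0279% and 0.0314% in the LY mice and 0.0277%, 0.0373%, 0.0432% and 0.0262% in AngII 1 to 4. In AngII+LY 1 to 4 it was 0.0273%, 0.186%, 0.031% and 0.165%. Thus the Ctrl and the AngII+LY groups each split into a pair of high and a pair of low libraries, whereas all AngII and LY libraries lay in the low range. The mean of the Ctrl group was 0.301% ± 0.465 (SD, n = 4) and that of the AngII group 0.0336% ± 0.00807 (SD, n = 4), while AngII+LY mice averaged 0.103% ± 0.0852 (SD, n = 4) and LY mice 0.0296% ± 0.00246 (SD, n = 2). The 10 low libraries, which come from all 4 groups, spanned 0.0262% to 0.0432%. With mitochondrial counts left out of the total, they spanned 0.0305% to 0.0573% and the 4 high libraries 0.16% to 1.03%.

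**Figure D1:**
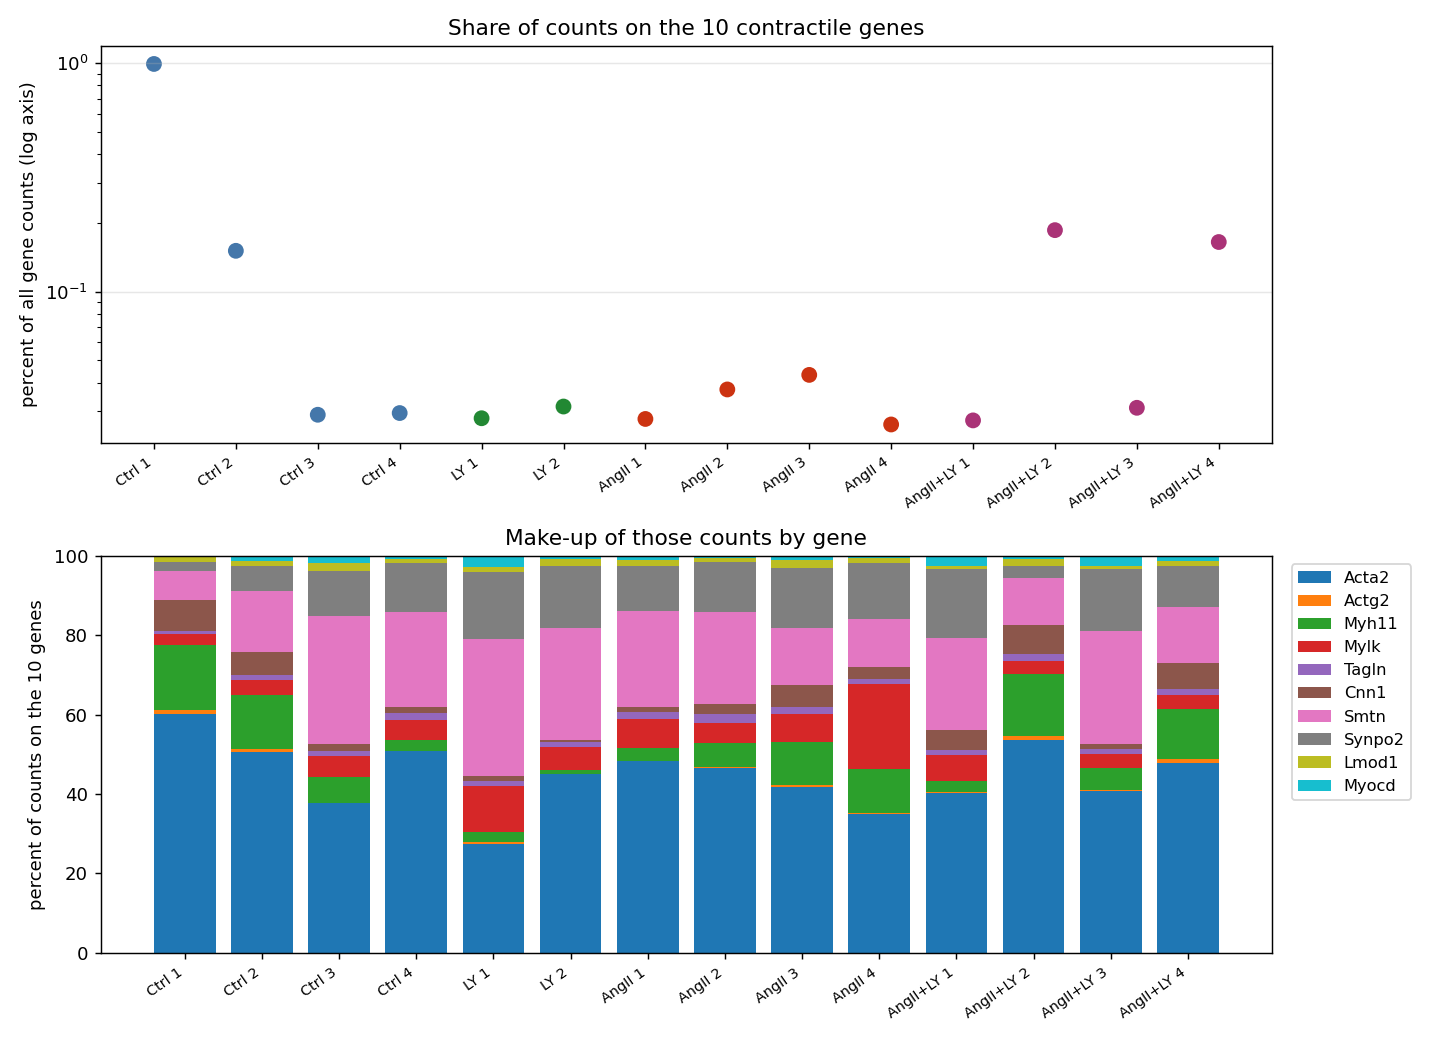
Top, percent of all gene counts on the 10 contractile genes in each library, on a log axis and coloured by group; bottom, the make-up of those counts by gene, in percent. Ctrl 1 reaches 0.994%, Ctrl 2, AngII+LY 2 and AngII+LY 4 lie between 0.151% and 0.186%, and the 10 other libraries lie between 0.0262% and 0.0432%, with a larger part of their counts on Synpo2.

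The make-up of these counts differed between the high and the low libraries. Acta2 took 47.9% to 60.3% of the members' counts in the 4 high libraries and 27.3% to 50.9% in the 10 others. A larger part also fell on Myh11, Cnn1 and Actg2: Myh11 took 12.5% to 16.5% against 1.09% to 11.1%, Cnn1 5.75% to 7.8% against 0.41% to 5.54%, and Actg2 0.87% to 1.06% against 0.0437% to 0.716%. For these 3 genes the ranges of the high and low libraries did not overlap. The 4 high libraries were picked by counts on these same genes, so the make-up is a description only. Synpo2 went the other way, also without overlap, with 2.06% to 10.2% against 11.3% to 17.5%, and Smtn took 7.41% to 15.5% against 12.1% to 34.5%.

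Acta2 (ENSMUSG00000035783, GRCm39 chromosome 19, 34217737 to 34232990, minus strand) encodes the smooth muscle α-actin of the thin filament. Its normalized counts in Ctrl 1 to 4 were 284729.6, 39775, 5386 and 7455, and in LY 1 and 2 they were 3938 and 7201. In AngII 1 to 4 they were 7076, 8653, 11961 and 6373. In AngII+LY 1 to 4 they were 7060.2, 52819.6, 7587 and 47768. The AngII range lay inside the Ctrl range, and the 10 libraries outside the high set spanned 3.04-fold, against 72.3-fold over all 14.

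Actg2 (ENSMUSG00000059430, chromosome 6, 83489887 to 83513551, minus strand) encodes the γ-actin typical of visceral smooth muscle. It had 4108, 737, 928 and 1056 normalized counts in Ctrl 1, Ctrl 2, AngII+LY 2 and AngII+LY 4, and between 7 and 205.5 in the 10 others. Its raw counts were as low as 8 in LY 2 and 10 in AngII+LY 3, so its ratios are the least precise of the list. Actg2 counts amounted to between 0.0972% and 2.49% of the Acta2 counts of the same library. The sequences of the actin genes are closely related, and how many reads of Acta2 were assigned to Actg2 was not tested.

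Myh11 (ENSMUSG00000018830, chromosome 16, 14012399 to 14109236, minus strand) encodes the smooth muscle myosin heavy chain, the motor and the most specific marker of differentiated smooth muscle. It had 78076, 10735, 929 and 377 normalized counts in Ctrl 1 to 4, and 369 and 175 in LY 1 and 2. In AngII 1 to 4 it had 464, 1142, 3104 and 2015. In AngII+LY 1 to 4 it had 483, 15572, 1058 and 12458. Both LY mice lay below every Ctrl mouse, though LY 1 at 369 was close to Ctrl 4 at 377. AngII 2, AngII 3 and AngII 4 lay above Ctrl 3 and Ctrl 4, and AngII 1 lay above Ctrl 4. Mylk (ENSMUSG00000022836, chromosome 16, 34565580 to 34822790, plus strand), the myosin light chain kinase, had 12914.5, 2907, 736 and 743 in Ctrl 1 to 4 and 1646 and 920 in the LY mice. It had 1080.4, 935, 1970 and 3888 in AngII 1 to 4, and 1138, 3280.1, 632 and 3412 in AngII+LY 1 to 4. AngII 4 was thus above Ctrl 2 and both high AngII+LY libraries, and Mylk did not separate the 4 high libraries from the others.

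**Figure D2:**
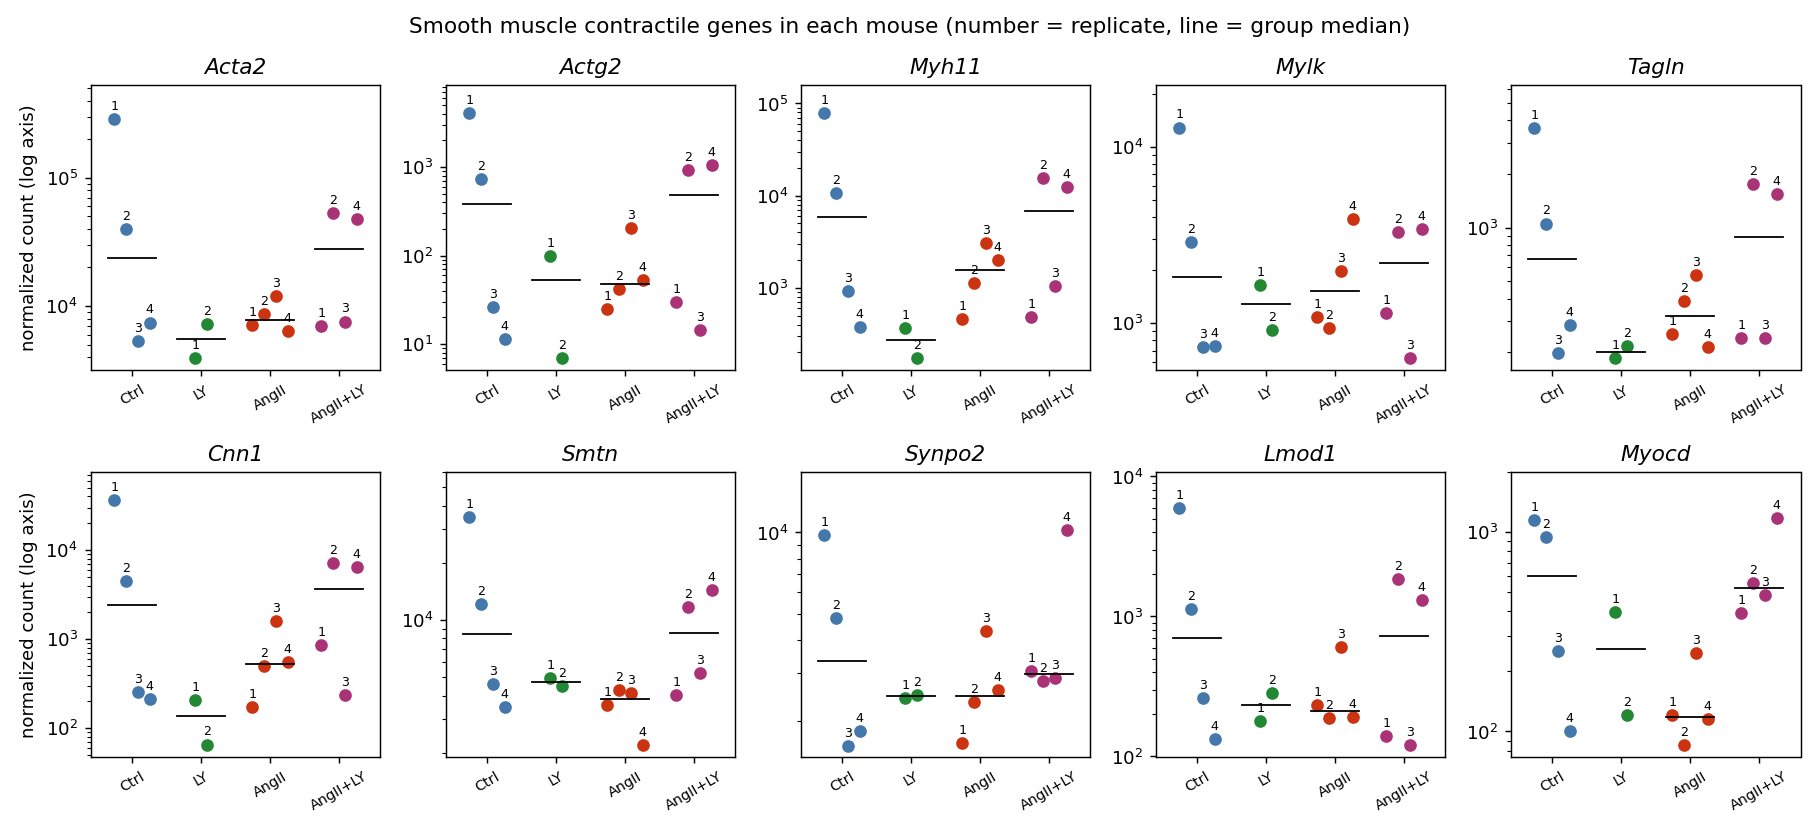
Normalized counts of the 10 contractile genes in each of the 14 mice, on log axes, grouped by treatment, with the replicate number above each point and a line at the group median. Ctrl 1, Ctrl 2, AngII+LY 2 and AngII+LY 4 lie above all other mice in 8 of the 10 genes, the exceptions being Mylk and Synpo2.

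Of the remaining members, 5 encode proteins that bind actin or tune its filaments. Cnn1 (ENSMUSG00000001349, chromosome 9, 22010512 to 22020926, plus strand), calponin 1, had 36843, 4532, 254 and 215 normalized counts in Ctrl 1 to 4 and 206 and 65.6 in LY 1 and 2. It had 173, 505, 1589 and 549 in AngII 1 to 4, and 869, 7140.3, 236 and 6533 in AngII+LY 1 to 4. Over the 14 libraries it spanned 561.5-fold, close to the 586.9-fold of Actg2 and above the 446-fold of Myh11. Tagln (ENSMUSG00000032085, chromosome 9, 45840909 to 45847404, minus strand), transgelin or SM22α, had 3628, 1056, 1752 and 1543 in Ctrl 1, Ctrl 2, AngII+LY 2 and AngII+LY 4, and between 185 and 546 in the 10 others. Lmod1 (ENSMUSG00000048096, chromosome 1, 135252509 to 135295907, plus strand), the actin filament nucleator leiomodin 1, had 5935, 1132, 1854 and 1307 in the same 4 libraries and between 121 and 609 in the 10 others. Both genes followed the pattern of Acta2.

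Smtn (ENSMUSG00000020439, chromosome 11, 3467520 to 3490612, minus strand), smoothelin, had 34984, 12185, 4610.3 and 3488 normalized counts in Ctrl 1 to 4 and 4977 and 4512 in the LY mice. It had 3563, 4288, 4143 and 2194 in AngII 1 to 4, and 4041, 11760.5, 5279 and 14318 in AngII+LY 1 to 4. Its 10 low libraries spanned only 2.41-fold, the narrowest range of the list. Synpo2 (ENSMUSG00000050315, chromosome 3, 122870168 to 123029798, minus strand), synaptopodin 2 or myopodin, a Z-disc protein of heart and skeletal muscle as well, had 9745, 4820.2, 1616 and 1834 in Ctrl 1 to 4 and 2436 and 2498 in the LY mice. It had 1652, 2352, 4313 and 2604 in AngII 1 to 4, and 3060.5, 2821, 2895 and 10213 in AngII+LY 1 to 4. AngII+LY 4 was the highest library for Synpo2, above Ctrl 1, while AngII+LY 2 was among the low libraries.

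Myocd (ENSMUSG00000020542, chromosome 11, 65067387 to 65160828, minus strand) encodes myocardin, the SRF coactivator of smooth and heart muscle. It had 1152, 950.5, 254 and 100.5 normalized counts in Ctrl 1 to 4 and 398 and 121 in LY 1 and 2. In AngII 1 to 4 it had 121, 85.1, 249 and 116. In AngII+LY 1 to 4 it had 393, 559, 485 and 1176. All 4 AngII+LY mice were above all 4 AngII mice, including AngII+LY 1 and 3, which were among the low libraries for the summed share. The 12 cardiomyocyte genes took 1.51%, 0.807%, 1.53% and 0.896% of the counts in AngII 1 to 4 and 2.42%, 1.96%, 3.23% and 4.54% in AngII+LY 1 to 4, and those groups did not overlap either. The part of heart muscle RNA in the Myocd values was not tested.

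Per kilobase of exon, which allows levels to be compared between genes, Acta2 led the list with a median over the 14 libraries of 2331 normalized counts per kilobase, followed by Smtn with 1024. The next 5 lay close together: Synpo2 at 207, Cnn1 at 193, Myh11 at 145, Tagln at 132 and Mylk at 124, and their ranges over libraries overlapped. Lmod1 had 60.6, Myocd 45.4 and Actg2 21.5. In Ctrl 1 the order changed, with Acta2 at 88233.5, Cnn1 at 13466, Myh11 at 10274.5 and Smtn at 7851, while Synpo2 at 744.5 and Myocd at 162 came last. Of the exon bases of Tagln, 66.7% also belong to Gm48529, an antisense RNA gene, or to Pcsk7, and 35.1% of those of Cnn1 are shared with Elof1. The use of strand in counting is not given in the sources used here, so reads over such bases cannot be told apart, and the per-kilobase levels of Tagln and Cnn1 are uncertain. Acta2 shared 9.33% of its exon bases with Stambpl1, Smtn 18.9% and Mylk 6.85% with other genes.

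The first comparison asks how AngII altered these genes. Against Ctrl, the fitted level in AngII mice was lower for all 10 members, with a median log2 fold change of -2.36 beside -0.06 over all genes tested. The difference was -3.31 ± 1.09 (SE) for Acta2, -3.75 ± 1.44 for Myh11, -3.89 ± 1.48 for Cnn1 and -3.90 ± 1.69 for Actg2. It was smaller for Smtn at -1.96 ± 0.62, for Mylk at -1.14 ± 0.83 and for Synpo2 at -0.72 ± 0.56. No member was separated, since no gene of the list had all AngII mice below all Ctrl mice, against 7.56% of all genes tested. With edgeR's quasi-likelihood test, 0 of 10 members and 0 genes in all (0%) were called at an adjusted p under 0.05, the smallest adjusted p of any gene being 0.0573. At an unadjusted p under 0.05, 8 of the 10 were lower, beside 11.7% of all genes tested. DESeq2 called 5 of the 10 lower (Acta2, Cnn1, Myh11, Myocd and Smtn), beside 4.69% of all genes tested. The mitochondrial share also separated AngII from Ctrl mice, and its part in the fitted differences was not tested.

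These values rested on Ctrl 1 and Ctrl 2. Without Ctrl 4, one of the low libraries, edgeR called 2 of the 10 lower, Myocd and Smtn, beside 0.797% of genes. Without Ctrl 1 the median log2 fold change of the members was -0.99, the differences fell in size to -1.04 ± 0.76 for Acta2, -1.26 ± 1.16 for Myh11 and -1.24 ± 1.17 for Cnn1, and that of Mylk was 0.42 ± 0.68. Then 1 of 10 members, Myocd, was lower at an unadjusted p under 0.05 in edgeR, beside 9.04% of genes, and DESeq2 called none of the 10, beside 1.65% of genes called lower, with 1 of the 10 lower at an unadjusted p under 0.05 beside 9.47% of genes. Without both high Ctrl libraries and both high AngII+LY libraries the median was 0.65, with Myh11 at 1.37 ± 0.71, Cnn1 at 1.58 ± 0.86 and Acta2 at 0.41 ± 0.32, and 1 member, Mylk at 1.41 ± 0.57, was higher at an unadjusted p under 0.05 in edgeR beside 7.36% of genes. In DESeq2 4 of the 10 (Cnn1, Myh11, Mylk and Synpo2) were higher at an unadjusted p under 0.05 under the same setting, beside 10.9% of genes. The direction for 8 of the 10 genes therefore depended on Ctrl 1 and Ctrl 2, the exceptions being Smtn at -0.19 ± 0.28 and Myocd at -0.31 ± 0.62.

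The second comparison asks how LY272015 modified the response to AngII. Between AngII+LY and AngII mice, the fitted level was higher in AngII+LY for all 10 members, with a median log2 fold change of 1.62 beside -0.02 over all genes. The largest differences were those of Actg2 at 2.63 ± 1.61 (SE), Cnn1 at 2.39 ± 1.38, Myocd at 2.19 ± 0.69 and Myh11 at 2.14 ± 1.35, and that of Mylk was 0.11 ± 0.83. In 1 gene, Myocd, all AngII+LY mice were above all AngII mice, which held for 5.45% of all genes. In edgeR 0 of 10 were called, as was no gene (0%, smallest adjusted p 0.0568), 2 of 10 were higher at an unadjusted p under 0.05 beside 10.1% of genes, and DESeq2 called 1, Myocd, beside 5.3% called higher. Without Ctrl 1, which enters this comparison only through the shared spread, 3 members (Acta2, Myocd and Smtn) were higher at an unadjusted p under 0.05 in edgeR beside 9.75% of genes, and DESeq2 called Myocd and Smtn beside 5.06%. Without Ctrl 1 and Ctrl 2, DESeq2 called 3 (Acta2, Myocd and Smtn) beside 5.09%. Without the 4 high libraries the median was -0.42, Myh11 was at -1.10 ± 0.70 and Lmod1 at -1.20 ± 0.62, and Myocd was at 1.65 ± 0.61, the 1 member higher at an unadjusted p under 0.05 in edgeR beside 6.58% of genes. Both comparisons share the AngII mice, so they are not independent of each other.

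LY alone against Ctrl asks whether the compound acted without AngII. The members' median log2 fold change was -2.84 beside -0.03 over all genes, with Myh11 at -6.37 ± 2.25, Cnn1 at -6.26 ± 2.28 and Acta2 at -3.92 ± 1.51. Myh11 and Cnn1 were lower in both LY mice than in any Ctrl mouse, beside 6.41% of genes. The edgeR test called 0 of 10 members and no gene (0%), every adjusted p being 1, and 4 of 10 were lower at an unadjusted p under 0.05 beside 0.763% of genes. DESeq2 called 0 of 10, beside 0.104% called lower, with 6 at an unadjusted p under 0.05 beside 1.46% of genes. Without Ctrl 1 the median was -1.24, with 2 members, Cnn1 and Myh11, lower at an unadjusted p under 0.05 in edgeR beside 0.581% of genes, and without the 4 high libraries it was 0.25, with Myh11 at -1.24 ± 0.79. The LY group has 2 mice, so its spread was estimated mainly from the other groups.

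Against Ctrl, AngII+LY mice had a median log2 fold change of the members of -1.08 beside -0.02 over all genes, with Acta2 at -1.55 ± 1.02, Myh11 at -1.61 ± 1.32 and Synpo2 at 0.08 ± 0.56. In edgeR 0 of 10 members and no gene (0%, smallest adjusted p 0.0857) were called, with 0 of 10 members at an unadjusted p under 0.05 beside 4.89% of genes higher and 6.14% lower. DESeq2 also called 0 of 10, with 0 at an unadjusted p under 0.05, beside 0.867% of genes called higher and 0.925% lower. Without Ctrl 1 the sign turned and the median was 0.77, with Acta2 at 0.72 ± 0.78 and Myh11 at 0.88 ± 1.19. Without Ctrl 1 and Ctrl 2, which leaves the high libraries in the AngII+LY group alone, the median was 2.04 and 8 of 10 members were higher at an unadjusted p under 0.05 in edgeR beside 3.34% of genes. Without all 4 high libraries the median was 0.28, with Acta2 at 0.21 ± 0.37, Myocd at 1.34 ± 0.74 and Lmod1 at -0.57 ± 0.68. Both groups hold 2 high and 2 low libraries each.

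**Figure D3:**
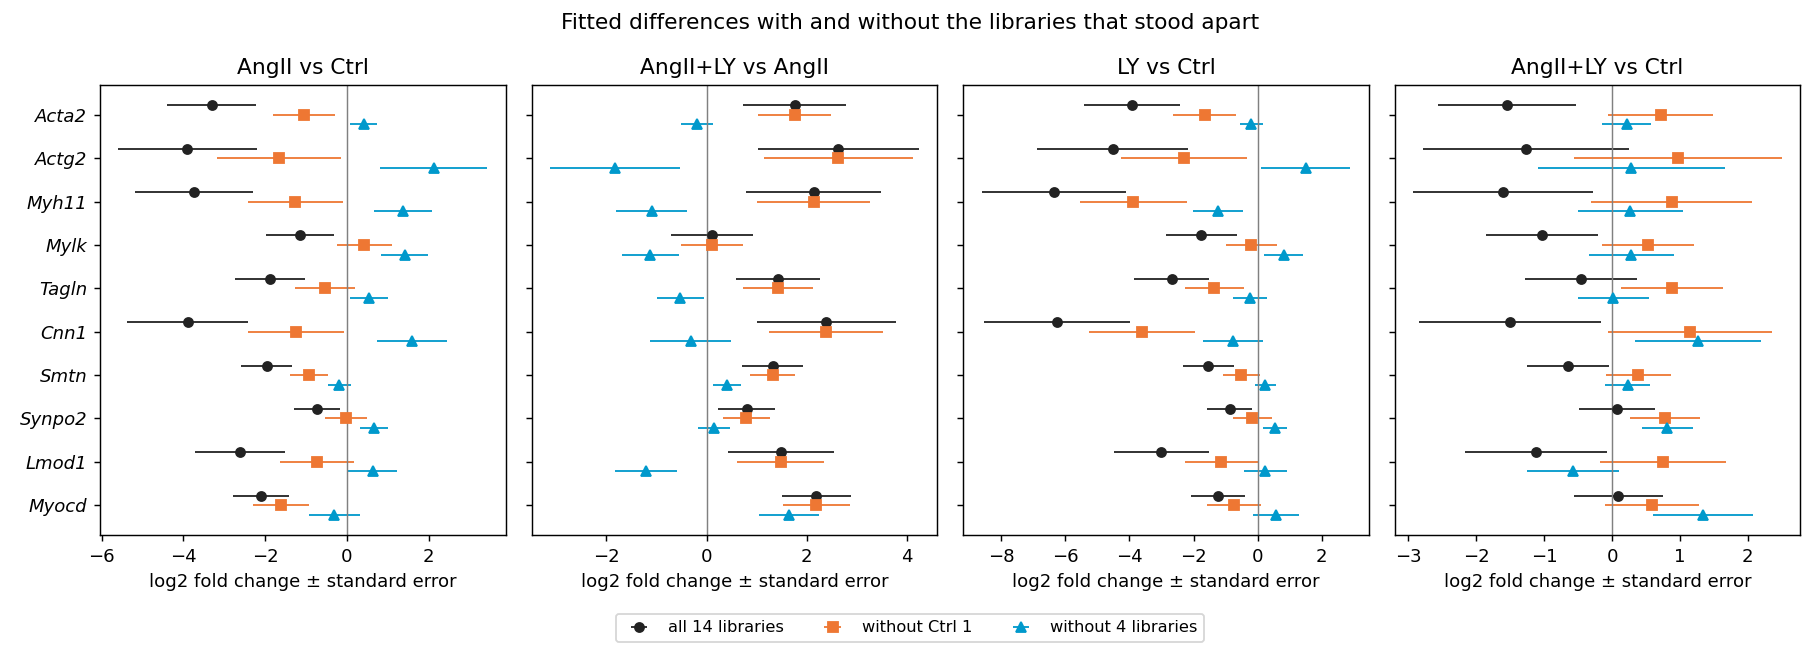
Log2 fold changes of the 10 contractile genes, with bars of 1 standard error, in the 4 comparisons, from all 14 libraries (circles), without Ctrl 1 (squares) and without Ctrl 1, Ctrl 2, AngII+LY 2 and AngII+LY 4 (triangles). In AngII vs Ctrl the Acta2 value moves from -3.31 to -1.04 and 0.41, while in AngII+LY vs AngII the Myocd value keeps its sign at 2.19, 2.19 and 1.65.

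The spread of the members between mice was large. The SD of log2(normalized count + 1) over the 14 libraries was 2.8 for Actg2, 2.61 for Cnn1, 2.56 for Myh11 and 1.74 for Acta2, against a median of 0.61 over all genes tested. That of Cnn1 was above the SD of 97.6% of genes, and that of Synpo2, the smallest of the list at 0.835, above 64%. Among the 10 low libraries Acta2 had an SD of 0.417 and Smtn of 0.359, below the median of 0.591 over all genes, whereas Actg2, Cnn1 and Myh11 kept SDs of 1.4, 1.31 and 1.26.

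The 48 other genes of smooth muscle contraction came from 4 lists, also written with earlier results known, and all 48 were tested. Of these, 0 were called in edgeR in any of the 4 comparisons. At an unadjusted p under 0.05, 8 were higher and 11 lower in AngII vs Ctrl, 6 and 7 in AngII+LY vs AngII, 0 and 3 in LY vs Ctrl, and 7 and 6 in AngII+LY vs Ctrl. Over all genes tested the shares higher and lower were 13.4% and 11.7%, 10.1% and 12.4%, 0.627% and 0.763%, and 4.89% and 6.14%. Their median log2 fold changes were -0.11, 0.01, -0.27 and -0.32, beside -2.36, 1.62, -2.84 and -1.08 for the members. In the 4 high libraries, 4 of the 20 other genes of the contractile apparatus (Myl9, Tpm2, Flna and Csrp1) lay above all 10 low libraries, 0 of the 8 SRF regulators, and 1 of the 10 channel and receptor genes, Kcnmb1.

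DESeq2 called 10 of the 48 in AngII vs Ctrl, beside 13.8% of all genes tested. Lower in AngII were Srf, Mrtfa, which encodes another SRF coactivator, Csrp2, Ppp1r14a, which encodes the myosin phosphatase inhibitor CPI-17, and the phosphatase subunit gene Ppp1r12b. The edgeR log2 fold change was -2.09 ± 0.61 (SE) for Ppp1r14a and -1.79 ± 0.61 for Csrp2, and without Ctrl 1 it was -1.19 ± 0.50 and -0.69 ± 0.43. Higher were Rock2, Ppp1cb, which encodes the catalytic subunit of that phosphatase, and Pdlim5, Nexn and Pln, which heart muscle also expresses. The value was 1.47 ± 0.39 for Ppp1cb and 0.76 ± 0.20 for Rock2, and 1.48 ± 0.45 and 0.73 ± 0.22 without Ctrl 1. Ppp1cb had 22670 and 24967 normalized counts in AngII 1 and 2 but 47820 and 72675 in AngII 3 and 4, the libraries with mitochondrial shares of 24.7% and 25.5%, and the part of that share was not tested. Without Ctrl 1, none of the 5 lower genes, nor Nexn or Pln, was called by DESeq2. It then called 6 of the 48, all higher, beside 6.06% of genes called higher: Pdlim5, Ppp1cb and Rock2 again, and Cald1, Prkg1 and Rock1. In AngII+LY vs AngII it called 7, beside 10.8% of genes: Srf, Des, Tpm1 and Pdlim7 were higher, and Rock1, Prkg1 and Filip1l were lower, with Des at 1.62 ± 0.53 and Prkg1, the cGMP-dependent kinase of smooth muscle relaxation, at -1.34 ± 0.39. It called 1 gene in LY vs Ctrl, Prdm6, which was lower, beside 0.104% of genes, and 1 in AngII+LY vs Ctrl, Pdlim5, which was higher, beside 1.79%.

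Srf, the transcription factor known to drive most of these genes, had 1453, 2211, 1617 and 1206 normalized counts in Ctrl 1 to 4 and 1178 and 1149 in LY 1 and 2. It had 1336, 819, 666 and 469.9 in AngII 1 to 4, and 902, 1464, 2108 and 2366 in AngII+LY 1 to 4. The AngII group overlapped both others through AngII 1. The log2 fold change was -0.98 ± 0.34 (SE) in AngII vs Ctrl (edgeR adjusted p = 0.106, DESeq2 adjusted p = 0.039) and 1.05 ± 0.34 in AngII+LY vs AngII (edgeR adjusted p = 0.104, DESeq2 adjusted p = 0.0227). Without Ctrl 1 the first was -1.02 ± 0.37, with a DESeq2 adjusted p of 0.0644. In Ctrl 1, Ctrl 2, AngII+LY 2 and AngII+LY 4 the level of Srf was 1.25, 1.9, 1.26 and 2.03 times the median of the 10 low libraries, against 110.6, 15.2, 22 and 17.6 times for Myh11.

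The genes most like the members over the libraries were sought among 13619 genes whose mean count was 100 or more, by Pearson's r between each gene and the mean of the members' standardized log2 levels. Over all 14 libraries Tpm2, β-tropomyosin of the thin filament, came first with r = 0.987, above each member. It was followed by Ntrk3 (0.943), Kcnmb1 (0.932), the smooth muscle subunit of the calcium-activated potassium channel, then Lgr6, Adcy5, Rasl12, Gm13889, Ramp1, Ppp1r14a and Myl9 (0.899), the regulatory light chain that Mylk phosphorylates. Over the 13 libraries without Ctrl 1, Tpm2 came first again with r = 0.979, and Ntrk3, Kcnmb1, Rasl12, Gm13889 and Adcy5 were also among the first 10. These r values are a description over libraries that include the 4 high ones. Tpm2 had 50419.9, 12329.5, 17948 and 15557 normalized counts in Ctrl 1, Ctrl 2, AngII+LY 2 and AngII+LY 4. Kcnmb1 had 4459, 577, 950.5 and 636 there.

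The content of the 4 high libraries was compared with 10 genes listed for the aortic wall, among them elastin and the media genes Itga8 and Npnt. Most of these genes were also abundant in the low libraries. Their medians there were 9240.5 for Eln, 11242.3 for Emilin1 and 8908 for Mfap4, against 706.2 for Myh11, and only Lox (464.8) and Notch3 (322.6) lay below Myh11. In Ctrl 1 all 10 were at their highest of the 14 libraries, which held for 9.78% of all genes tested, and their sum was 0.393% of counts against 0.0423% to 0.136% in the 13 others. Itga8 in Ctrl 1 had 34431 normalized counts, 17.2 times the median of the 10 low libraries, Npnt 8.54 times, Mfap4 4.77 times and Eln 2.42 times. In Ctrl 2, AngII+LY 2 and AngII+LY 4 the sums were 0.105%, 0.113% and 0.0647%, within the range of the low libraries. Itga8 was 1.06, 1.69 and 1.29 times the low median in these 3 libraries, Eln 1.12, 1.85 and 0.973 times, and Myh11 15 to 22 times. Their share of counts on the contractile genes was 0.151%, 0.186% and 0.165%, far below the 0.994% of Ctrl 1. A proportionally smaller wall content could thus leave their sums within the low range, so the sums cannot show whether wall tissue was present. The wall content of these 3 libraries was not tested. Notch3, Heyl and Mustn1, named after their values were seen, were above all 10 low libraries in all 4 high ones, as were 99 of all genes tested (0.517%).

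Ctrl 1 also differed from the other 3 high libraries in genes outside the list. Of the 20 genes with the largest ratio of Ctrl 1 to the highest other library, 3 were members: Acta2 at 5.39, Cnn1 at 5.16 and Myh11 at 5.01. Ahead of them were Sost, the secreted Wnt antagonist sclerostin, at 11.7, Itga8 at 10.2, Npy1r, the neuropeptide Y receptor, at 8.27, Susd5 at 6.71 and Ccn3 at 6.37. Sost had 12039 normalized counts in Ctrl 1, 766 in Ctrl 2, 1031 in AngII+LY 2 and 464.5 in AngII+LY 4, and at most 304 in the 10 others. Susd5 had 11793.5 in Ctrl 1, 1292, 1758 and 1071 in the other 3 and at most 630 in the 10 others. Sost and Susd5 thus lay above the 10 low libraries in all 4 high ones, and Npy1r, Nox4 and Col4a6 did not.

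**Figure D4:**
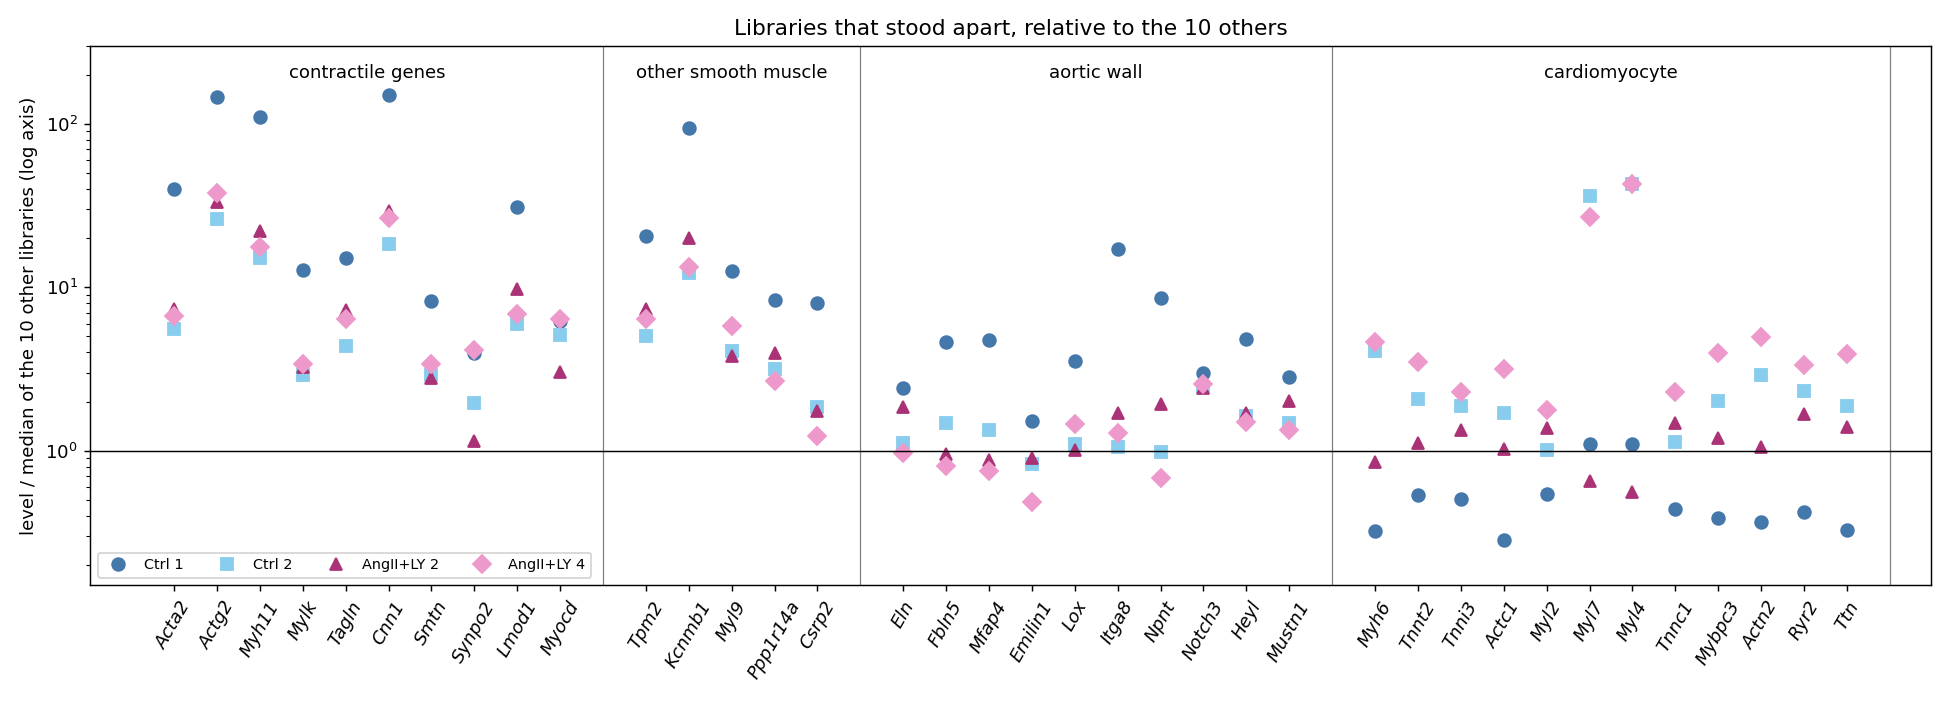
Level of each gene in Ctrl 1, Ctrl 2, AngII+LY 2 and AngII+LY 4 divided by the median of the 10 other libraries. Shown are the 10 contractile genes, 5 of the 48 other genes of contraction, the 10 aortic wall genes and the 12 cardiomyocyte genes. The 5 (Tpm2, Kcnmb1, Myl9, Ppp1r14a and Csrp2) are all high in Ctrl 1, whereas Pln (0.314) and Des (0.586), not shown, are low there. The axis is a log axis and the line marks a ratio of 1. Itga8, the aortic wall gene with the largest ratio in Ctrl 1 (17.2), is near 1 in Ctrl 2 (1.06), whereas Notch3 is at 2.98 and 2.46. Myl7 and Myl4 are high in Ctrl 2 and AngII+LY 4 but not in the other pair.

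Other cell types also varied among the 4 libraries. The atrial myosin light chain genes Myl7 and Myl4 were 36.1 and 43 times the low median in Ctrl 2 and 26.9 and 42.6 times in AngII+LY 4, but 1.1 and 1.1 times in Ctrl 1 and 0.657 and 0.561 times in AngII+LY 2. The 12 cardiomyocyte genes summed to 0.825%, 3.61%, 1.96% and 4.54% in Ctrl 1, Ctrl 2, AngII+LY 2 and AngII+LY 4. The medians of the 6 Schwann and melanocyte genes, such as Dct, were 16.1, 5.28, 1.9 and 5.06 times the low median, and those of the 8 pericyte genes were 1.09, 1.33, 0.909 and 1.14 times. Thus the pericyte list was near the low libraries in all 4, although its gene Cspg4 was above all 10 low libraries in each. The 8 myofibroblast genes had median ratios of 1.27, 0.671, 0.742 and 0.339, and the 8 valve interstitial genes 1.03, 0.713, 0.459 and 0.399. In the same order, the median ratios were 0.55, 0.735, 1.18 and 0.734 for the 6 endothelial genes, 3.02, 1.8, 0.234 and 0.724 for the 6 adipocyte genes, 3.71, 2.89, 1.48 and 1.05 for the 5 macrophage genes, and 0.765, 2.45, 0.482 and 1.26 for the 5 mesothelial genes. No gene of these 4 lists lay above all 10 low libraries in all 4 high ones. The part of each of these cell types in the contractile values was not tested.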

How the data were processed

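Bulk RNA-seq of aortic valves from 14 mice was analysed in the 4 groups of the sample labels. Per the labels and the study's methods, the authors checked reads with FastQC 0.12.1, trimmed them, aligned them to GRCm39 with HISAT2, and used featureCounts and DESeq2, whose versions and strand setting are not given in the sources used here. The deposited table is named as normalized, but its values are whole-number counts per Ensembl gene with unequal totals, so the deposited counts were tested as raw counts. Symbols came from GENCODE vM39, where 618 genes with 0.0361% of counts had no match.

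The 19145 genes whose mean count was 10 or more were fitted together in 1 edgeR 4.0.16 quasi-likelihood model of 4 groups in R 4.3.3 with TMM normalization (common dispersion 0.353). Calls needed a Benjamini-Hochberg adjusted p under 0.05 with a log2 fold change beyond 0.5 in either direction. DESeq2 1.42.0 was an alternative. The fits were also run on simulated counts with a smaller spread between mice than in these data. That run therefore does not show how the fits perform at the spread seen here. Nothing in the labels states more than 1 mouse per library, and p-values measure the spread between these mice.

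The members and all gene lists were chosen with earlier results of these data known. Named were all members, of each other list the 3 genes with the highest mean, the 3 with the largest and the 2 with the smallest ratio of Ctrl 1 to the other libraries and any gene called, the 10 genes most like the members with and without Ctrl 1, and the 20 genes with the largest ratio of Ctrl 1 to the other libraries. Exceptions, and the libraries left out together, were chosen after the values were seen. Alternatives were size factors, filters, groups in the fit, a replicate block, a loess GC correction with a span of 0.3, a fold threshold and leaving out each mouse.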

Additional observations from a re-analysis of the deposited data

Results flagged for a closer look

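The 10 contractile genes and their summed share were examined for a single mouse standing apart in the 3 groups of 4, in 33 sets of values, with the gap of the extreme mouse to its neighbour divided by the group's range. A ratio above Dixon's 95% critical value for 4 samples passes, which chance gives in about 1 of 20 groups, and 2 of the 33 passed. The 10 genes were chosen because single mice differed in them, so that rate does not apply here and both ratios are a description of the values that chose the genes. The share of counts on the 10 genes in Ctrl 1 stood apart from the other Ctrl mice with a ratio of 0.873, at 0.994% against 0.0289% to 0.151%. That ratio was taken on the untransformed percent scale, and no single member passed in the Ctrl group on the log2 scale. Synpo2 in AngII+LY 4 stood apart from the other AngII+LY mice with a ratio of 0.937 on the log2 scale, at 10213 normalized counts against 2821 to 3060.5. AngII+LY 4 was also the library with the highest share of cardiomyocyte genes, at 4.54%, a cell type in which Synpo2 is also expressed, and the part of that content was not tested.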

How the results depend on the processing

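Leaving out each mouse in turn moved the members' median log2 fold change from -2.85 to -0.99 in AngII vs Ctrl, from 1.25 to 2.02 in AngII+LY vs AngII, from -3.21 to -1.24 in LY vs Ctrl and from -1.51 to 0.77 in AngII+LY vs Ctrl, the end nearest or past 0 coming without Ctrl 1 in the 3 comparisons with Ctrl and without AngII+LY 2 in the other. Members called ranged from 0 to 2 in AngII vs Ctrl, the 2 (beside 0.797% of genes called lower) without Ctrl replicate 4, and other genes of contraction from 0 to 4 there, the 4 without AngII replicate 1, and from 0 to 1 in AngII+LY vs AngII. DESeq2 called 5 members and 10 other genes of contraction in AngII vs Ctrl, 1 and 7 in AngII+LY vs AngII, 0 and 1 in LY vs Ctrl, and 0 and 1 in AngII+LY vs Ctrl. In the same order, it called 13.8%, 10.8%, 0.104% and 1.79% of all genes tested. A minimum mean count of 100 called 3 other genes in AngII vs Ctrl. The shares of all genes called with that filter and without AngII replicate 1 are not given here, so those counts say nothing particular to these genes. With DESeq2 and without Ctrl 1, the calls were 0 and 6 in AngII vs Ctrl, beside 7.71% of genes, and 2 and 8 in AngII+LY vs AngII, beside 10.1%. The median in AngII+LY vs Ctrl was then 0.82. Without Ctrl 1 and Ctrl 2 the edgeR medians were 0.65, 0.23 and 2.04 in AngII, LY and AngII+LY vs Ctrl, and those of DESeq2 were 0.69, 0.26 and 2.09. DESeq2 then called 1 other gene in AngII vs Ctrl, beside 0.572% of all genes. In AngII+LY vs AngII it called 3 members (beside 5.09% of genes called higher) and 9 others, beside 9.94% of genes called in either direction. Without all 4 high libraries the edgeR medians were 0.65, -0.42 and 0.25 in AngII vs Ctrl, AngII+LY vs AngII and LY vs Ctrl, and those of DESeq2 were 0.69, -0.43 and 0.26, while the edgeR median in AngII+LY vs Ctrl was 0.28. The sets of high libraries, and DESeq2 without Ctrl 1, were chosen after seeing the data. Of 1120 single-gene values under the alternatives, 981 kept their sign and 154 of the 155 that moved by over 1 SD left out a library. That SD is the one between mice of a group on the log2 scale, from 0.891 for Synpo2 to 2.99 for Actg2. It is a wide yardstick, so a value within it may still have moved several-fold.

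The replicate numbers did not pair the mice: of 18 same-numbered pairs of libraries, 0 had deviations correlated above 0.1 (r from -0.114 to 0.0844), and 3 of 14 libraries correlated best with their own number. With the replicate block 0 members were called in each comparison, and the members' medians were -1.89, 1.43, -2.87 and -0.16. With a GC correction they were -2.003, 1.53, -2.68 and -0.83, and with both -1.36, 1.14, -2.72 and -0.01.

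The depth, 20990655 to 73128220 counts, limits mainly Actg2, with 8 raw counts in its lowest library. The 4 AngII or AngII+LY mice set against 4 Ctrl mice, of which a pair was high, allow few statements on the members: the sign of their median against Ctrl turned once Ctrl 1 and Ctrl 2 were left out, and the cause was not tested.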

Other observations

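Renin was singled out after its values were seen. Ren1 (chromosome 1), the renin gene, reached 2368 normalized counts in AngII+LY 4, and AngII+LY 2 had 642. These are 2 of the libraries with high contractile genes. It had 41.6 in Ctrl 2 and none in Ctrl 1, the library with the most contractile RNA. In AngII 1 to 4 it had 10.3, 87.2, 113 and 0, and it was at 0 in AngII+LY 1 and AngII+LY 3. The 4 high libraries thus differed in the level of renin, as they did in the levels of the listed aortic wall genes and of atrial genes.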
